A study of Mus musculus with 6 samples.

Results

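Kcnj8 and Abcc9 encode the pore (Kir6.1) and the regulatory subunit (SUR2) of the ATP-sensitive potassium (KATP) channel of vascular cells. They are 2 of the 31053 genes counted in each of the 6 libraries, were chosen by name, and were read here in pericytes picked by other genes. All 6 libraries came from Tbx18CreER/+;Rosa26tdT/+ mice, in which tamoxifen lets a Cre recombinase driven by Tbx18, a transcription factor of mural cells, switch on the red fluorescent protein tdTomato. Tamoxifen was injected intraperitoneally for 4 days and washed out for a week, and tdTomato-positive cells were sorted from enzymatically dissociated tissue and sequenced with the 3' 10X Genomics v.3 chemistry. The heart groups were the ventricles after sham surgery, the infarcted left ventricle after LAD ligation (tying of the left anterior descending coronary artery), and the tissue around that infarct without atria. The brain groups, from dissected cortex, were sham surgery, the necrotic core of an infarct made by photothrombosis (light-induced clotting), and the tissue around it. Each group is 1 library. Time after injury, age and the number of animals behind a library are not given in the labels, so no difference below has a replicate check, no p-value is given, and every interval covers counting error only.

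A KATP channel joins pore subunits of the Kir6 family with sulfonylurea receptor subunits, closes when ATP is plentiful and opens when the energy state of the cell falls. In pericytes and vascular smooth muscle the main pair is Kir6.1 with SUR2B, a splice form of Abcc9, and opening hyperpolarises the cell, which relaxes it and lets current spread along the vessel wall. Signals that raise cAMP, such as adenosine, are known to open the channel, and receptors coupled to Gq are known to close it.

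The 2 genes are neighbours. In GRCm38 (mm10, GENCODE vM21), Kcnj8 (ENSMUSG00000030247) lies at chr6:142564837-142571614 on the minus strand, and Abcc9 (ENSMUSG00000030249) at chr6:142587862-142702315 on the same strand. The gap of 16247 bases between them holds 0 annotated genes. Abcc9 overlaps an antisense gene, 5330439B14Rik, which had 0 to 2 UMIs (unique molecular identifiers, 1 per captured RNA molecule) in the pericytes of any library. The counts do not separate the splice forms of Abcc9. Because both genes are compared as a pair throughout, their promoters are shown, as RefSeq gives them for GRCm38.p6, from 250 bases before to 50 after the start, 5′ to 3′ on the minus strand, at chr6:142571565-142571864 for Kcnj8 and chr6:142702225-142702524 for Abcc9. Capitals mark matches to the motifs searched.
Kcnj8: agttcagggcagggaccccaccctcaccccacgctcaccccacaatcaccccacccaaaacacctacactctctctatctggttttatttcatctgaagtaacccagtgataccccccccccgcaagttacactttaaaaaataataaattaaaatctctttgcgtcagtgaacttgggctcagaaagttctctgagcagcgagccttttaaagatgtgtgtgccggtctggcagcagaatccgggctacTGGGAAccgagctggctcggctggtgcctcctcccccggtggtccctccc
Abcc9: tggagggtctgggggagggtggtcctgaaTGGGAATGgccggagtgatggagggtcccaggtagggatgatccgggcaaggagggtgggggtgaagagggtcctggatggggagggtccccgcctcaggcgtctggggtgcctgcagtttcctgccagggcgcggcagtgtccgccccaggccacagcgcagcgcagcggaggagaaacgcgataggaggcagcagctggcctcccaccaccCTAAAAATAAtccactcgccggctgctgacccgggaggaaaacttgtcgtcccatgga
In all, 6 motifs were searched on both strands among 32851 promoters of this length. TGGGAA, the core of the RBPJ motif, was in 25.6% of all promoters and in both of these, at position 251 of Kcnj8 and 30 of Abcc9, counted from the 5′ end. GGAATG, the core of the TEAD motif, was in 14.7% of promoters and only in Abcc9 of the pair, at position 32, overlapping TGGGAA. The MEF2 motif was in 3.19% and again only in Abcc9, at position 243. The letters TATAAA (13.6% of promoters) were in neither window. Nor was GTAAACA, a forkhead motif (3.65%), nor the CArG box (1.63%). A match is a description of the letters, not a binding site. The GC share was 53.3% for Kcnj8 and 65.7% for Abcc9, against a median of 52.7% over all promoters.

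Pericytes were gated without either subunit. Each cell with at least 1000 UMIs was thinned at random to 1000 UMIs, and was gated when at least 3 of 4 genes had a UMI: Higd1b, a mitochondrial protein typical of pericytes, Vtn (vitronectin), Colec11 (a collectin), and Pdgfrb, the receptor that recruits pericytes. Of 30231 cells, 3005 were gated. The heart gave 120 of 8314 sham cells (1.44%), 470 of 7942 infarct cells (5.92%) and 346 of 7215 peri-infarct cells (4.80%). The brain gave 999 of 2539 sham cells (39.3%), 271 of 1983 infarct cells (13.7%) and 799 of 2238 peri-infarct cells (35.7%). All UMIs of the gated cells were then summed per library and scaled to a total of 1000000 UMIs (CPM).

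In 5 libraries most gated cells lay in pericyte-like clusters, and in heart sham they did not. Clusters built without Kcnj8 and Abcc9 and named by marker lists placed 90% of the gated infarct cells and 84.1% of the gated peri-infarct cells of the heart in pericyte-like clusters. For the brain the shares were 84.0% (sham), 89.3% (infarct) and 83.5% (peri-infarct). The clustering did not leave out the 4 gate genes, and the marker list that names pericyte-like clusters holds all 4. The overlap is therefore no independent check of the gate. In heart sham only 9 of 120 gated cells (7.5%) fell in the pericyte-like cluster, while 50 fell in an unnamed cluster led by Myh11, Rgs5 and Gsn and 26 in smooth-muscle-like clusters. Gated heart sham cells also carried other cells' transcripts, with Dcn, a fibroblast proteoglycan, at 5344 CPM against 143 CPM in gated heart infarct cells, and Myh11, the smooth muscle myosin, at 1174 against 243 CPM. The 10 fibroblast markers summed to 8608 CPM in gated heart sham cells and to between 454 and 2174 CPM in the other 5 libraries, with 0 of the 10 at 0 in heart sham. Its 10 smooth muscle markers summed to 9343 CPM, against 582 to 5647 CPM elsewhere. Their part in the heart sham levels was not tested. The values of the subunits, and of the named list genes called against heart sham, are therefore also given for those 9 cells. Colec11 was nearly missing from gated brain cells, with 0 to 4 UMIs in those of any brain library. The gate there thus required Higd1b, Vtn and Pdgfrb together in all but the cells with such a UMI. Over all cells of brain pericyte-like cluster 19, Colec11 stood at 66.7 CPM. Vtn stood at 17715 to 24676 CPM in the brain and 1014 to 1214 CPM in the heart. Depth differed too, with medians per gated heart cell of 1416 UMIs (sham), 3796 (infarct) and 4808 (peri-infarct). The medians per gated brain cell were 2855, 3023 and 2130 UMIs in the same order. Up to 204 cell barcodes were shared by a pair of libraries (heart and brain peri-infarct, 7.88% of the smaller), but only 0, 3 and 2 gated heart cells (sham, infarct, peri-infarct) and 18, 3 and 11 gated brain cells carried a barcode seen in another library.

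Kcnj8, the pore subunit, was a well-counted gene in every library. Its level in gated heart pericytes was 730 CPM in sham (133 UMIs; 95% Poisson interval 611 to 865), against 928 in infarct (887 to 971) and 1159 around it (1110 to 1208). In the brain it was 1481 CPM in sham (1439 to 1524), against 2138 in infarct (2045 to 2233) and 1657 around it (1601 to 1714). All heart libraries lay below all brain libraries. Sham was the lowest library of each organ, the highest was peri-infarct in heart and infarct in brain, and no neighbours in this order had overlapping intervals. This order rests on the 120 gated heart sham cells. In the 9 of them in the pericyte-like cluster Kcnj8 stood at 3220 CPM, above every other library.

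Abcc9, the sulfonylurea receptor that makes the channel sensitive to nucleotides and to opener drugs, ordered the brain libraries the other way round. In the heart its level was 664 CPM in sham (121 UMIs; 551 to 793), against 1036 in infarct (993 to 1081) and 1173 around it (1125 to 1223). In the brain it was 1945 CPM in sham (1897 to 1994), against 1355 in infarct (1281 to 1431) and 1777 around it (1719 to 1836). Brain sham was the highest library for Abcc9 and the lowest brain library for Kcnj8, but the 9 heart sham cells of the pericyte-like cluster stood higher for Abcc9, at 3001 CPM. A sum over cells does not by itself tell fewer channel-rich cells from less channel RNA per cell. Cell by cell, the median Abcc9 level in gated brain cells was 1775 CPM in sham and 1137 CPM in infarct.

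**Figure D1:**
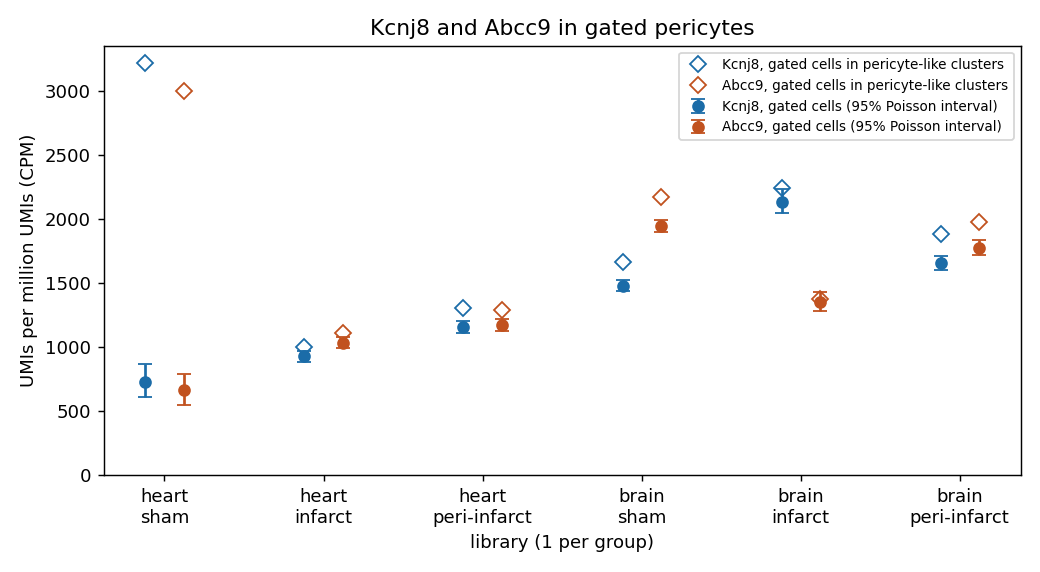
Level of Kcnj8 (blue) and Abcc9 (orange) in CPM for each of the 6 libraries. Filled circles are all gated pericytes with 95% Poisson intervals, and open diamonds are the gated cells that also lie in pericyte-like clusters; the circles and diamonds stay close except in heart sham, where 9 cells put Kcnj8 at 3220 CPM and all 120 put it at 730 CPM.

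The same levels were also read as shares of cells. At 1000 UMIs per cell, 43.3% of gated heart sham cells had a Kcnj8 UMI (52 of 120; Clopper-Pearson 95% interval 34.3 to 52.7%), as did 58.1% after heart infarction and 60.4% around it. In the brain the shares were 72.5% (sham), 75.6% (infarct) and 69.8% (peri-infarct). Abcc9 was seen in 37.5%, 62.1% and 67.3% of gated heart cells (sham, infarct, peri-infarct) and in 77.5%, 70.8% and 75.6% of gated brain cells in the same order. In the 9 heart sham cells of the pericyte-like cluster, 9 had a Kcnj8 and 7 an Abcc9 UMI. Without thinning, the Kcnj8 shares were 48.3%, 87.0% and 90.8% in heart and 90.6%, 92.3% and 85.7% in brain. Cells with 3 or more Kcnj8 UMIs among 1000 made up 22.1% of gated cells in brain sham and 33.2% in brain infarct. For Abcc9 the same shares were 31.6% and 19.6%, the opposite order.

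The share of cells with a subunit UMI outside the pericytes differed between libraries. Endothelial-like cells, which line the vessel, were taken as the class to set the gated shares against. Clusters with endothelial markers and much gate-gene RNA were kept apart as a mixed class. How far free RNA, doublets or their own transcripts gave the UMIs of endothelial-like cells was not tested. Endothelial-like cells had a Kcnj8 UMI in 13.98% of cells in heart sham (at 1000 UMIs, median depth 1188 UMIs before thinning) and in 0.968 to 3.81% of cells in the other 5 libraries. For Abcc9 the share was 13.6% in heart sham and 3.33 to 6.27% elsewhere. Every share in gated pericytes was above the share in the endothelial-like cells of its own library. In heart sham, Kcnj8 stood between 94.5 and 159 CPM in all 4 named classes with at least 50 cells, including fibroblast-like cells, where heart infarct had 2.02 CPM.

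Against sham, neither subunit reached the 2-fold difference used here to call a gene, in either organ. That fold is taken on CPM + 1 for genes averaging 50 CPM or more, and it called 13.9% of 3205 genes for heart infarct (445 genes) and 13.9% of 3274 for heart peri-infarct (455). In the brain it called 5.82% of 3950 genes for infarct (230) and 0.855% of 3978 for peri-infarct (34). In brain infarct Kcnj8 was 1.44-fold the sham level (interval 1.37 to 1.52; log2 ratio 0.53), a larger ratio than in 89.8% of the genes compared. Abcc9 was 0.70-fold (0.66 to 0.74; log2 ratio -0.52), at percentile 15.5 of the same genes, whose median was -0.05. In brain peri-infarct the ratios had the same signs and were smaller, with a log2 ratio of 0.16 for Kcnj8 (fold interval 1.07 to 1.17) and -0.13 for Abcc9 (0.88 to 0.95). Both brain comparisons use the same sham library. In all 16 alternative gates, filters and scalings that gave a value, Kcnj8 kept a positive and Abcc9 a negative sign in brain infarct, over 0.16 to 0.55 and -0.91 to -0.42. The same held around the infarct, over 0.093 to 0.18 and -0.18 to -0.12.

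In the heart the gated values were above sham, and their direction turned with the gate. Heart infarct against heart sham gave log2 ratios of 0.35 for Kcnj8 and 0.64 for Abcc9, and heart peri-infarct gave 0.67 and 0.82, all against the same sham library and its 133 and 121 UMIs. In the 9 heart sham cells that were both gated and in the pericyte-like cluster, Kcnj8 stood at 3220 CPM (59 UMIs) and Abcc9 at 3001 CPM (55 UMIs). The same double choice gave 1002 CPM of Kcnj8 in heart infarct and 1310 around it, so that the ratios turned to -1.68 and -1.30 for Kcnj8 and to -1.43 and -1.22 for Abcc9. With free RNA subtracted they were -0.58 and -0.26 for Kcnj8 and -0.27 and -0.10 for Abcc9. The free share, estimated from fibroblast markers in endothelial-like cells, was 53.8% in heart sham and 1.17 to 4.38% elsewhere. Its subtraction put heart sham at 1415 CPM of Kcnj8 and 1279 CPM of Abcc9. Of 17 alternatives, 7 changed the sign for Kcnj8 and 6 for Abcc9 in infarct, and 5 and 4 in peri-infarct. These libraries therefore give no stable direction for either subunit between sham and injured heart.

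**Figure D2:**
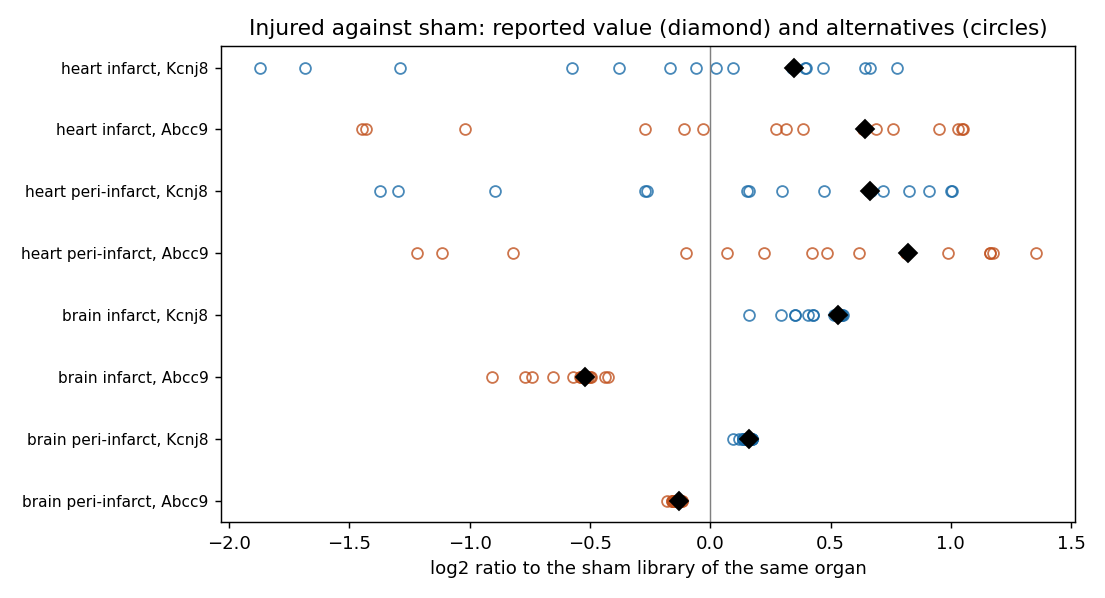
Log2 ratio of each injured library to the sham library of its organ, for Kcnj8 (blue) and Abcc9 (orange). The black diamond is the reported gate and each open circle 1 alternative; the heart circles lie on both sides of 0, from -1.87 to 1.36, and the brain circles of each gene lie on 1 side.

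Between the 2 injured heart libraries, whose gated cells lay mostly in pericyte-like clusters, the subunits were less than 2-fold apart. Kcnj8 was 0.80-fold in infarct relative to peri-infarct (0.75 to 0.85) and Abcc9 0.88-fold (0.83 to 0.94), in a comparison where 1.27% of 3232 genes were 2-fold apart. Between the 2 injured brain libraries Kcnj8 was 1.29-fold in infarct relative to peri-infarct (1.22 to 1.36) and Abcc9 0.76-fold (0.71 to 0.81), with 3.63% of 3860 genes 2-fold apart. So the pair differed in the same direction inside the heart and in opposite directions inside the brain.

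Around the infarct, gated heart pericytes had less of both subunits than gated brain pericytes, with 1 library per organ. The gate was unlike in the 2 organs: heart cells could pass through Colec11, while nearly all brain cells needed Higd1b, Vtn and Pdgfrb. Its part in the ratios was not tested. Heart peri-infarct against brain peri-infarct gave 0.70-fold for Kcnj8 (0.66 to 0.74, log2 ratio -0.52) and 0.66-fold for Abcc9 (0.63 to 0.70, log2 ratio -0.60). These lay at percentiles 31.9 and 27.3 of 3685 genes, of which 23.8% were 2-fold apart and whose median log2 ratio was -0.20. Under the 16 alternatives both stayed negative, from -1.20 to -0.26 for Kcnj8 and from -1.15 to -0.33 for Abcc9. Between the infarcts, Kcnj8 was 0.43-fold in heart (0.41 to 0.46) and was called lower, in a comparison that called 14.3% of 3540 genes lower, while Abcc9 was 0.77-fold (0.71 to 0.82). Between the sham libraries both were called lower in heart, Kcnj8 at 0.49-fold (0.41 to 0.59) and Abcc9 at 0.34-fold (0.28 to 0.41), where 21.3% of 3688 genes were lower. That call turned when gate and cluster, which share genes, were joined. Among gated cells in pericyte-like clusters, heart sham was above brain sham, with log2 ratios of 0.95 for Kcnj8 and 0.47 for Abcc9.

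The balance of the subunits stayed within its reported interval in 82 of 87 alternative values, though it differed between clusters of the same library, as given further on. The heart sham interval is wide, and a value stays more easily within it. The balance is given as Abcc9 UMIs per Kcnj8 UMI, which does not change with the scaling of a library. Deeper cells weigh more in it, and giving cells equal depth or weight moved brain infarct to 0.73. Since each gene is captured at its own efficiency, the balance is compared between libraries only and is not a channel stoichiometry. In the brain it was 1.31 in sham (1.26 to 1.36), against 0.63 in infarct (0.59 to 0.68) and 1.07 around it (1.02 to 1.12). In the heart it was 0.91 in sham (0.71 to 1.17), against 1.12 in infarct (1.05 to 1.19) and 1.01 around it (0.95 to 1.07). The 9 heart sham cells of the pericyte-like cluster gave 0.93 (0.63 to 1.37). Brain sham was the highest and brain infarct the lowest of the 6, and the intervals of the 3 brain libraries did not overlap. Under the 14 alternatives that gave a brain value the ratio stayed between 1.27 and 1.33 in sham, 0.61 and 0.73 in infarct, and 1.05 and 1.09 in peri-infarct.

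The brain shift went along with which pericyte-like cluster the gated cells belonged to, and the ratio also differed inside clusters. Sham and infarct had intervals that did not overlap within cluster 4, as did sham and peri-infarct within cluster 0. Cluster 0, led by Rgs5, Vtn and the transporter gene Atp13a5, held 649 of the 999 gated brain sham cells (64.97%), 278 of the peri-infarct cells (34.8%) and 46 of the infarct cells (17.0%). Its ratio was 1.39 in both sham (1.33 to 1.45) and infarct (1.13 to 1.70), against 1.13 in peri-infarct (1.05 to 1.21). Cluster 1, led by Vtn, Rgs5 and Higd1b, held the largest share of the gated peri-infarct cells (350 of 799, 43.8%), with 119 sham cells (11.9%) and 27 infarct cells (9.96%). Its ratio was 0.97 in sham (0.84 to 1.11), 1.002 in peri-infarct (0.92 to 1.09) and 0.88 in infarct (0.63 to 1.24), with intervals that overlapped. Cluster 4, led by the same 3 genes, held 168 of the 271 gated infarct cells (62.0%) but only 59 sham and 21 peri-infarct cells. Its ratio was 0.52 in infarct (0.48 to 0.57), 0.82 in sham (0.69 to 0.97) and 0.75 in peri-infarct (0.58 to 0.96). Kcnj8 in cluster 4 stood at 2390 CPM in infarct and 1632 in sham, and Abcc9 at 1243 and 1342 CPM. Within cluster 0, where Kcnj8 was 1680 CPM in infarct and 1700 in sham, Abcc9 was 2328 and 2360 CPM. A cluster drawn mostly from 1 library, as cluster 4 is (255 of its cells from infarct, 100 from sham and 28 from peri-infarct), may be that library and not a cell type.

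**Figure D3:**
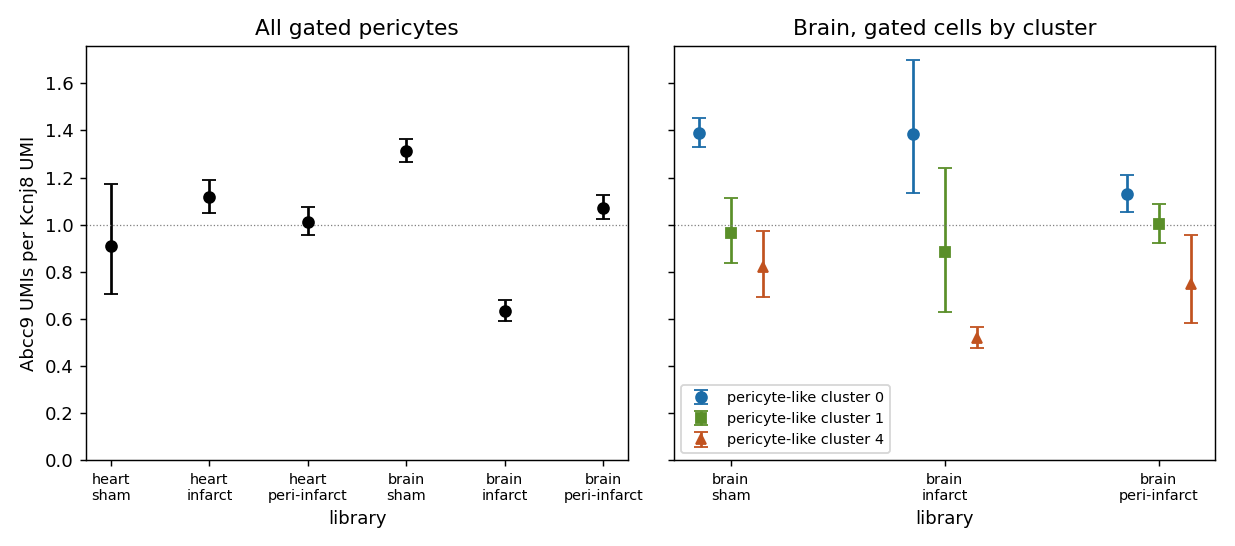
Abcc9 UMIs per Kcnj8 UMI with exact 95% intervals, for all gated pericytes of each library (left) and for gated brain cells split by pericyte-like cluster (right). Brain infarct lies at 0.63 on the left; on the right cluster 4 is at 0.52 in infarct while cluster 0 is at 1.39 in both sham and infarct.

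In the gated cells the subunits were seen together more often than the product of their separate shares, by a margin that was smaller in all 6 libraries when gate and cluster were joined. At 1000 UMIs per cell, both had a UMI in 20.8% of gated heart sham cells (25 of 120; Clopper-Pearson 95% interval 13.96 to 29.2%), 39.6% of heart infarct cells (186 of 470; 35.1 to 44.2%) and 44.2% of heart peri-infarct cells (153 of 346; 38.9 to 49.6%). In the brain both were seen in 60.3% of sham cells (602 of 999; 57.1 to 63.3%), 56.5% of infarct cells (153 of 271; 50.3 to 62.4%) and 57.3% of peri-infarct cells (458 of 799; 53.8 to 60.8%). The products of the shares were 16.3%, 36.1% and 40.7% for heart sham, infarct and peri-infarct, and 56.1%, 53.6% and 52.8% for the same groups of brain. The observed share was above the product in all 6, and the product lay below the interval in brain sham and brain peri-infarct. That interval covers the share alone, and the product comes from the same cells, so it does not measure the departure from the product. The odds of an Abcc9 UMI with Kcnj8, over those without it, were 2.22, 1.84 and 1.95 in heart sham, infarct and peri-infarct. In brain these odds ratios were 2.95, 2.04 and 2.98 in the same order, given without intervals. With the gate as used and its alternatives, the product lay below the interval in 9 of 12 settings in each of those 2 libraries and in 1 to 4 settings in each of the others. The 3 settings in which it did not, in both brain libraries, were cells with markers of other types left out, pericyte-like clusters, and gate and cluster together. In the last the share was 65.6% against a product of 64.5% in brain sham, and 60.7% against 57.9% in brain peri-infarct. In the 9 heart sham cells share and product were both 77.8%. Neither subunit was seen in 40%, 19.4% and 16.5% of gated heart cells from sham, infarct and peri-infarct. In brain the shares with neither were 10.3%, 9.96% and 11.9%. Cells with Kcnj8 alone outnumbered those with Abcc9 alone in brain infarct (52 against 39) and heart sham (27 against 20), and the reverse held in the other 4 libraries, as in brain sham (122 against 172).

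Co-detection in other cells gives the background at the same depth. Endothelial-like cells had both in 4.05% of cells in heart sham and in 0.323 to 1.12% elsewhere. Fibroblast-like cells had both in 1.41% of cells in heart sham, and in 0 of 3131 heart infarct cells and 0 of 750 brain infarct cells. On all UMIs the gated shares were 28.3% in heart sham, whose cells are the shallowest, 81.7% in infarct and 88.2% in peri-infarct of the heart, and 86.7%, 86.7% and 80.9% in sham, infarct and peri-infarct of the brain.

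**Figure D4:**
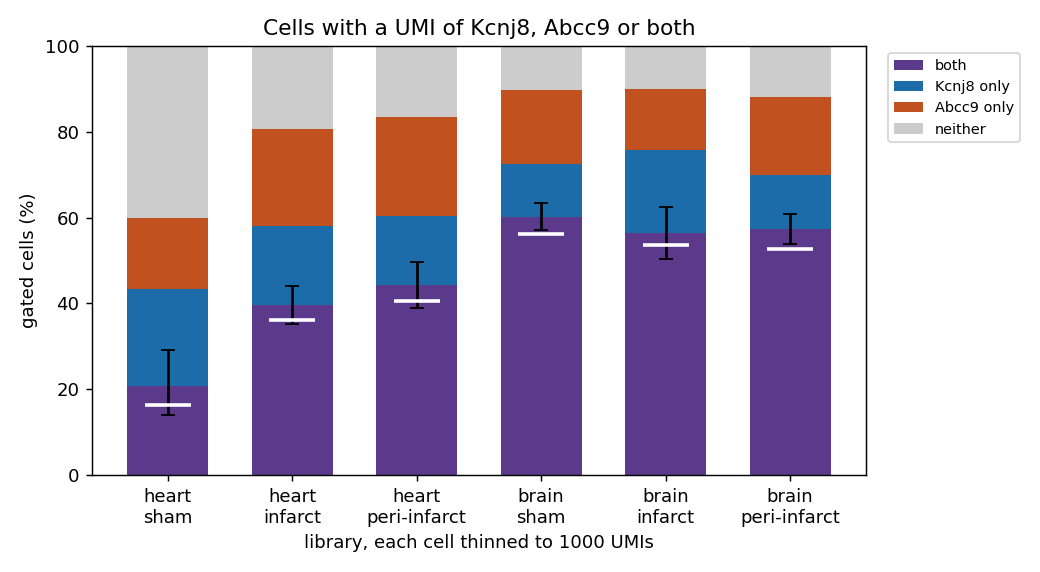
Share of gated pericytes of each library with a UMI of both subunits, of 1 or of neither, each cell thinned to 1000 UMIs. The black bars are 95% intervals of the share with both and the white lines the product of the 2 separate shares; the share with both is 20.8% in heart sham, 39.6% and 44.2% in injured heart, and 56.5 to 60.3% in brain.

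Among the cell classes of each library, both genes were highest in pericyte-like cells. Kcnj8 was highest in the pericyte-like clusters of the brain, at 1992 CPM in infarct, 1822 in peri-infarct and 1627 in sham, and reached 823 CPM in heart peri-infarct and 582 in heart infarct. Heart sham had only 24 cells in its pericyte-like cluster and is left out of this order. Those 24 cells had 2133 CPM of Kcnj8 on 118 UMIs, above the 3 brain values, and 1862 CPM of Abcc9 on 103 UMIs. Between libraries the classes crossed. Mixed endothelial and pericyte cells had 1014 CPM of Abcc9 in brain sham and 878 in brain peri-infarct. Pericyte-like cells had 860 CPM of Abcc9 in heart peri-infarct and 683 in heart infarct. Kcnj8 in the mixed cells was 710 CPM in brain sham and 729 in brain peri-infarct, above pericyte-like cells of heart infarct. Smooth-muscle-like cells of named clusters had 24.0 to 109 CPM of Kcnj8 and 45.5 to 129 CPM of Abcc9, the upper value in each case from heart sham. These ranges leave out brain cluster 8, led by Acta2, Rgs5 and Tagln. It stayed unnamed, though smooth muscle was its best list. It had 170 CPM of Kcnj8 and 315 CPM of Abcc9 over the brain libraries together. It held 183 brain sham cells, against 111 in the named smooth-muscle-like cluster 14. Endothelial-like cells had 11.01 to 159 CPM of Kcnj8 and 28.3 to 155 CPM of Abcc9. They were above the smooth-muscle-like cells in heart sham for both genes, and in brain peri-infarct for Abcc9 (64.8 against 45.5 CPM). The named smooth-muscle-like clusters were thus not set apart there. Both classes had more of the receptor subunit per pore subunit than gated pericytes in some libraries. Smooth-muscle-like cells had Abcc9 per Kcnj8 ratios of 2.04 in infarct (1.69 to 2.49) and 2.31 in peri-infarct of the heart (1.76 to 3.06) and 2.31 in brain sham (1.26 to 4.45). The first 2 intervals lay above those of the gated pericytes of the same library, and the brain sham interval overlapped it. The ratio was 1.19 in smooth-muscle-like cells of heart sham (1.04 to 1.36) and 1.58 in those of brain peri-infarct (0.73 to 3.58). Endothelial-like cells gave 2.15 in heart peri-infarct (1.75 to 2.64), 3.0 in brain sham (1.67 to 5.66) and 3.14 in brain peri-infarct (1.92 to 5.32), all above the gated pericytes, and 0.97 in heart sham (0.83 to 1.14). Macrophage or microglia-like cells of brain infarct had 0 UMIs of either gene in 2477695, which allows up to 1.21 CPM.

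**Figure D5:**
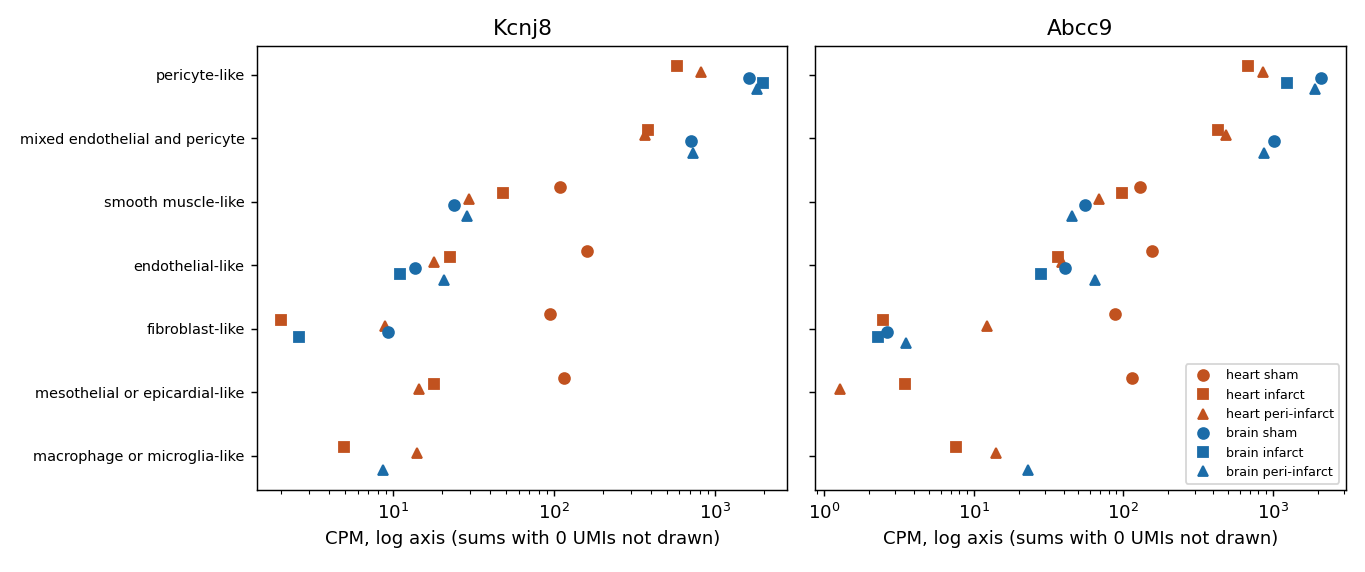
Level of Kcnj8 (left) and Abcc9 (right) in CPM on a log axis, for each cell class with at least 50 cells in a library; heart libraries are orange and brain libraries blue. Pericyte-like cells are highest in the 5 libraries where they are drawn, and the heart sham circles lie between 88.5 and 159 CPM in its 4 named classes.

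The gene most like Kcnj8 in its pattern over classes and libraries was Abcc9, and the reverse. Over 42 class-by-library sums and 7874 genes, the Pearson correlation of their log2(CPM + 10) was 0.976, a description only, since the sums share libraries and depth. Among the 5 genes most like Kcnj8 were also Art3 (0.922), an ADP-ribosyltransferase family member, Lin7a (0.918), a scaffold protein, and Rem1 (0.916), a small GTPase of the RGK family. Among the 5 most like Abcc9 were also Higd1b (0.932), Art3 (0.929) and Lin7a (0.924). Of the gate genes, Higd1b had rank 10 for Kcnj8, while Colec11, nearly missing from brain, had a correlation of 0.42.

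The other KATP genes were not detectable at this depth. Kcnj11, which encodes Kir6.2, had 0 UMIs in the gated pericytes of all 6 libraries, which allows up to 0.94 CPM in brain sham and 16.5 CPM in heart sham. Abcc8, which encodes SUR1, had 1 UMI in brain sham and 0 elsewhere. Among 26 other potassium channel genes only 1 to 3 reached 50 CPM in a comparison. Kcne4, an accessory subunit of voltage-gated channels, stood at 174, 132 and 136 CPM in brain sham, infarct and peri-infarct, and at 54.9, 83.0 and 55.1 CPM in heart sham, infarct and peri-infarct. Kcnk3, a background potassium channel, stood at 56.1, 58.5 and 73.3 CPM in brain sham, infarct and peri-infarct. None of those tested was 2-fold apart from sham in either organ.

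Counts of list genes are read against the shares of all tested genes called. These were 7.24% higher and 6.65% lower for heart infarct against sham, 7.57% and 6.32% for heart peri-infarct, 2.78% lower for brain infarct, and 8.33% higher and 15.4% lower for heart against brain around the infarct. Of 26 calcium, chloride and cation channel genes, 14 were tested in each brain comparison with sham and 0 were called, with a median log2 ratio of -0.26 in infarct and -0.08 in peri-infarct beside -0.05 and -0.02 over all genes. Trpc4 had 104 CPM in brain infarct against 194 in sham, and Trpv2 102 against 52.9. In the heart 7 were tested in each comparison with sham. In infarct 1 was called higher and 1 lower, and in peri-infarct 1 higher and 0 lower. The medians were 0.12 and 0.25, beside 0.07 and 0.10 over all genes. The gene called higher is not reported here. Itpr1, an intracellular calcium release channel that smooth muscle also expresses, was called lower in heart infarct, at 94.6 against 198 CPM. Around the infarct, heart was lower than brain in part of this list: 6 of 13 tested genes were called lower and 0 higher, with Trpc4 at 1.59 against 132 CPM and Ano1, a calcium-activated chloride channel, at 111 against 334 CPM.

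Of 36 genes of cAMP and cGMP signalling, 19 were tested in each brain comparison with sham and 0 were called, with medians of -0.02 in infarct and -0.05 in peri-infarct. Pde4b, a cAMP phosphodiesterase, had 99.0 CPM in brain infarct, 117 in peri-infarct and 190 in sham. Prkg1, the cGMP-dependent kinase, had 68.1, 67.3 and 105 CPM in the same order. In the heart 17 and 18 were tested, 0 called higher, and 2 and 1 called lower. These were Ramp2 and Ramp1, partners of the calcitonin receptor-like receptor, in infarct, and Ramp1 in peri-infarct. Around the infarct, heart was lower than brain in 7 of 19 and higher in 1, with the adenosine receptor gene Adora2a at 44.0 against 195 CPM and Pth1r, the parathyroid hormone receptor gene, at 85.9 against 753 CPM.

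Of 27 genes listed for the Gq pathway, 6 were tested in brain infarct, where Plcb4, a phospholipase C, was called lower at 36.2 against 82.1 CPM. The list also holds receptors that couple mainly to Gi, such as P2ry14. Ednra, the endothelin A receptor gene, had 499 CPM in brain infarct against 298 in sham, and Tbxa2r, the thromboxane receptor gene, 593 against 357, both under 2-fold. In brain peri-infarct 0 of 7 were called. In the heart 2 of 7 were called higher in each injured library and 0 lower: Ednra at 305 CPM in infarct and 261 in peri-infarct against 93.3 in sham, and Ednrb, the endothelin B receptor gene, at 85.9 and 130 against 27.4. The heart sham values rest on the same 120 cells as those of the subunits. In the 9 heart sham cells that were gated and in the pericyte-like cluster, Ednra stood at 273 CPM on 5 UMIs (88.6 to 637), against 317 CPM in infarct and 298 CPM in peri-infarct cells chosen the same way, so that it was not 2-fold apart there. Those 9 cells had 1 UMI of Ednrb, 5 of Itpr1 (273 CPM, 88.6 to 637), 3 of Kcne4, 1 of Ramp2 and 0 of Ramp1, which allows up to 164 CPM, too few to read a direction for these genes. Between the organs around the infarct, Ednra stood at 261 CPM in heart and 301 in brain. Other receptors of the list were further apart, with Tbxa2r at 10.1 CPM in heart and 487 in brain, and Ednrb at 130 and 13.5 CPM. P2ry14, a nucleotide-sugar receptor gene and not mainly a Gq one, stood at 176 CPM in heart and 883 in brain.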

How the data were processed

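The authors deposited unnormalized UMI counts for every gene in every called cell. The submitters' processing notes list Cell Ranger 3.0.2, the build mm10 and Seurat 3, without saying what each was used for. Libraries held 11796570 to 107892408 UMIs in 2368 to 17951 barcodes. Kcnj8, Abcc9 and every gene list were chosen with earlier results of these data known.

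Cells with fewer than 500 genes or more than 10% mitochondrial UMIs were left out. Doublet scores were set against simulated doublets, and the top 0.8% of scores per 1000 barcodes were marked. The gate and the scaling to CPM are described with the results. Fold changes compare CPM + 1. Sums carry exact Poisson 95% intervals, ratios conditional binomial ones and shares Clopper-Pearson ones. A count of 0 allows up to 3 counts. With 1 library per group no test across samples was made. The fold and co-detection code was tested on simulated data.

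Clusters were built per organ from 2000 variable genes without Kcnj8 and Abcc9, 30 principal components, 15 neighbours and Leiden resolution 1 (leidenalg 0.10.2, igraph 0.11.9). Clusters were named by marker lists. The base for each marker was the lower quartile over clusters, and the list with the largest mean log2 ratio to it gave the name, where that mean reached 1, 3 or more of its markers had 20 CPM and were 2-fold up, and 1 or more stood among its 10 leading genes. The rule on leading genes, the leaving out of red blood cell markers, and the mixed class (endothelial-like clusters with at least 1000 CPM of gate genes) were set after a first version was seen.

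Named genes are both subunits, the 4 gate genes, at most 4 members per list and comparison with the largest ratio among those of at least 50 CPM, and the 5 genes most correlated with each subunit over class sums of at least 50 cells. One gene that this rule names is not reported here. Other genes named (markers of contaminating cells, cluster leaders, Kcnj11 and Abcc8) fall outside that rule. Alternatives covered the gate, cell filters, edgeR 4.0.16 TMM factors, single-cell means, thinning, the pseudocount and free RNA. Leaving out shared barcodes, joining gate and cluster (also for the list genes in heart), and the alternatives of the subunit ratio were added after the data were seen. For free RNA, the free share was the CPM of fibroblast markers in endothelial-like cells over that in the library. Python 3.11.15, numpy 2.4.6 and scipy 1.17.1 were used.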

Additional observations from a re-analysis of the deposited data

Results flagged for a closer look

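Abcc9 differed from sham in opposite directions in the 2 organs, and this difference was not tested, since each group is 1 library. In infarct its log2 ratio to sham was 0.64 in heart and -0.52 in brain. In peri-infarct it was 0.82 in heart and -0.13 in brain. The heart values rest on the heart sham library, where 9 of 120 gated cells lay in the pericyte-like cluster, and for those 9 cells the heart ratios were -1.43 and -1.22, the same sign as in brain. The brain values kept their sign in all 16 alternatives.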

How the results depend on the processing

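Each group is 1 library, and heart sham is shallow with few cells in its pericyte-like cluster. No paired analysis was possible because each group has 1 library. Leaving out a replicate is not possible for the same reason. The gate on all 4 genes left 0 cells in the brain libraries and gives no value there. The cause of each change below was not tested. Of 98 alternative log2 ratios of Kcnj8 and 98 of Abcc9, 53 of each stayed within the reported interval. Of 87 values of the subunit ratio 82 did, and of 75 shares with both subunits 48 did.

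Against heart sham, the log2 ratios for Kcnj8 and Abcc9 in infarct and then Kcnj8 and Abcc9 in peri-infarct were 0.78, 1.05, 1.0 and 1.18 with at least 2 of the 4 gate genes. They were -0.38, -0.028, -0.27 and 0.22 with all 4, and -0.060, 0.31, 0.16 and 0.49 with the gate on all UMIs. Leaving out cells with Pdgfra, Dcn, Pecam1, Myh11 or Ptprc gave -1.29, -1.02, -0.89 and -0.82, and pericyte-like clusters gave -1.87, -1.45, -1.37 and -1.11. Gate and cluster together gave -1.68, -1.43, -1.30 and -1.22. Keeping doublet calls gave 0.022, 0.27, 0.30 and 0.42, at least 1000 genes per cell -0.17, -0.11, 0.15 and 0.071, single-cell means 0.66, 0.95, 1.0 and 1.16, and free RNA subtracted -0.58, -0.27, -0.26 and -0.10. Without Pdgfrb in the gate Kcnj8 was 0.64 and Abcc9 1.05 in infarct, and Abcc9 was 1.16 in peri-infarct. Thinning before summing put Abcc9 at 1.03 and 1.36.

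Brain infarct against brain sham gave 0.35 for Kcnj8 and -0.74 for Abcc9 with 2 of 4 gate genes, 0.16 and -0.91 with the gate on all UMIs, 0.29 and -0.77 in pericyte-like clusters, 0.43 and -0.66 with gate and cluster, and 0.43 and -0.42 as single-cell means. Kcnj8 was 0.41 without cells carrying other markers and 0.35 when thinned before summing, where it was 0.093 in brain peri-infarct.

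Heart sham against brain sham reversed for both subunits without cells carrying other markers (0.69 for Kcnj8 and 0.16 for Abcc9) and with gate and cluster together (0.95 and 0.47), and for Kcnj8 in pericyte-like clusters (0.39, with Abcc9 at -0.18). It was -1.63 and -2.08 with 2 of 4 gate genes, -1.41 and -1.95 without Pdgfrb, -0.70 and -1.20 with doublet calls kept, -0.51 and -0.81 at 1000 genes, and -0.10 and -0.64 with free RNA subtracted. Thinning before summing gave -1.84 for Abcc9. Heart peri-infarct against brain peri-infarct was -0.74 and -0.72 with 2 of 4 gate genes, -1.20 and -1.12 with the gate on all UMIs, -0.35 and -0.50 without cells carrying other markers, -1.15 for both in pericyte-like clusters, -0.26 and -0.35 with TMM factors, -0.32 and -0.43 as single-cell means and -0.31 and -0.33 thinned before summing. Without Pdgfrb Kcnj8 was -0.63.

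Abcc9 per Kcnj8 was 1.09 in heart peri-infarct with 2 of 4 gate genes and 1.14 with the gate on all UMIs, 0.92 in heart infarct with all 4, and 0.73 in brain infarct both as single-cell means and thinned before summing.

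The share of cells with both subunits in heart sham was 10.1% with 2 of 4 gate genes, 30.8% with all 4, 13.0% without Pdgfrb, 60.0% without cells carrying other markers, 62.5% in pericyte-like clusters and 77.8% with gate and cluster. In heart infarct and peri-infarct it was 32.3% and 34.8% with 2 of 4, 49.3% and 50.9% with all 4, 27.2% and 28.5% with the gate on all UMIs, 30.8% and 37.0% in pericyte-like clusters, and 60.8% and 68.1% at 2000 UMIs. In brain sham it was 52.6% with 2 of 4, 56.7% without Pdgfrb, 53.3% with the gate on all UMIs, 63.5% in pericyte-like clusters, 65.6% with gate and cluster, 56.8% with another seed and 80.8% at 2000 UMIs. Brain infarct was 82.6% at 2000 UMIs, and brain peri-infarct 50.8% with 2 of 4, 52.5% with the gate on all UMIs and 81.6% at 2000 UMIs.

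Genes at least 2-fold apart numbered 983 and 834 for heart infarct and peri-infarct against sham in pericyte-like clusters. With a mean of at least 20 CPM they numbered 1130 and 1159 in heart, 429 and 72 in brain, 2292 between the sham libraries and 1596 between the peri-infarct libraries. Leaving out shared barcodes changed no value beyond its interval.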
